A study of Saccharomyces cerevisiae S288C with 6 samples.

Results

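The COS genes of Saccharomyces cerevisiae encode a family of closely related membrane proteins and lie near the ends of chromosomes. This account covers 10 of them, COS1 to COS8, COS10 and COS12, taken as the probe sets that the array's annotation assigns to those names. Of these, 7 had a probe set under their name, among 5449 yeast genes with one, and all 7 lay above background and were among the 5356 genes tested. COS1, COS3 and COS5 had none under their name in the annotation used and are not analysed here. Each of the 7 had a single probe set, so taking the brightest left nothing out. The family was chosen with its PFA and DMSO signals known, so these signals and their differences are given as a description. The 95% intervals of members come from the fit over all genes, are not adjusted for this choice and are not read as tests. No p-value is given for a member, and the count of members past the threshold of the fit over all genes stands only beside that of all genes, with nothing read from it.

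Cos proteins span the membrane several times and travel to endosomes, where they help to carry other plasma membrane proteins into multivesicular bodies, the vesicle-filled endosomes whose content is degraded in the vacuole. They are themselves ubiquitinated and can supply the ubiquitin signal to cargo that lacks it. COS genes sit in subtelomeric DNA, where Sir proteins can silence genes, and copies have been exchanged between chromosome ends, which keeps their sequences alike. The DUP240 genes, which encode smaller membrane proteins, are their closest relatives.

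All cultures were of strain S288C, the alpha-mating-type reference strain, grown in buffered synthetic glucose medium. The PFA group received plakortide F acid (PFA), an antifungal polyketide from marine sponges, at 0.62 ug/ml, its IC50. The DMSO group received the solvent alone at 0.25%. The compound or solvent was added at an optical density of 0.2 and cells were collected at 0.5. No source used here states how long this took or how much DMSO the PFA cultures held, so growth time or solvent cannot be told apart from the compound. There were 3 biological replicates per group, each hybridized to its own Affymetrix Yeast Genome 2.0 array, and RNA came from whole cultures, so a change in the share of cells expressing a gene and a change per cell cannot be told apart.

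The deposited signals had been scaled so that every array had a trimmed mean of 1001. Between 98.1% and 98.7% of yeast probe sets lay above the background level, a signal of 20.01 set from annotated probe sets that matched no yeast gene. Log2 signals correlated at 0.986 to 0.990 between arrays of a group and at 0.932 to 0.938 between groups. Alpha-cell markers fitted the strain, with 4 of 4 above background on each DMSO array and mean DMSO signals of 7207 to 17847. The 4 a-cell markers, at 76.4 to 597, were above background too. In PFA 4 of the alpha-cell and 3 of the a-cell markers were lower. Their log2 changes ran from -0.45 to -6.77 and from -0.70 to -3.12, respectively. The part of these markers in the results below was not tested. With 6 arrays, precision is limited by their number.

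The comparison of PFA with DMSO addressed how transcript levels respond to a dose of the compound that inhibits growth. Of the 7 measured COS genes, 6 were higher in PFA, from 1.37-fold for COS2 to 2.44-fold for COS10, and COS12 was 2.39-fold lower. In all 7 the groups did not overlap, a separation seen in 66.6% of all genes tested, 32.4% with PFA above DMSO and 34.2% with PFA below. All 7 also passed the threshold of the fit over all genes (limma, adjusted p under 0.05), which 62% of all genes tested passed, 30.3% as higher and 31.8% as lower. The median log2 change was 0.89 over the 7 members and -0.02 over all genes. These counts describe a family chosen from the same contrast.

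**Figure D1:**
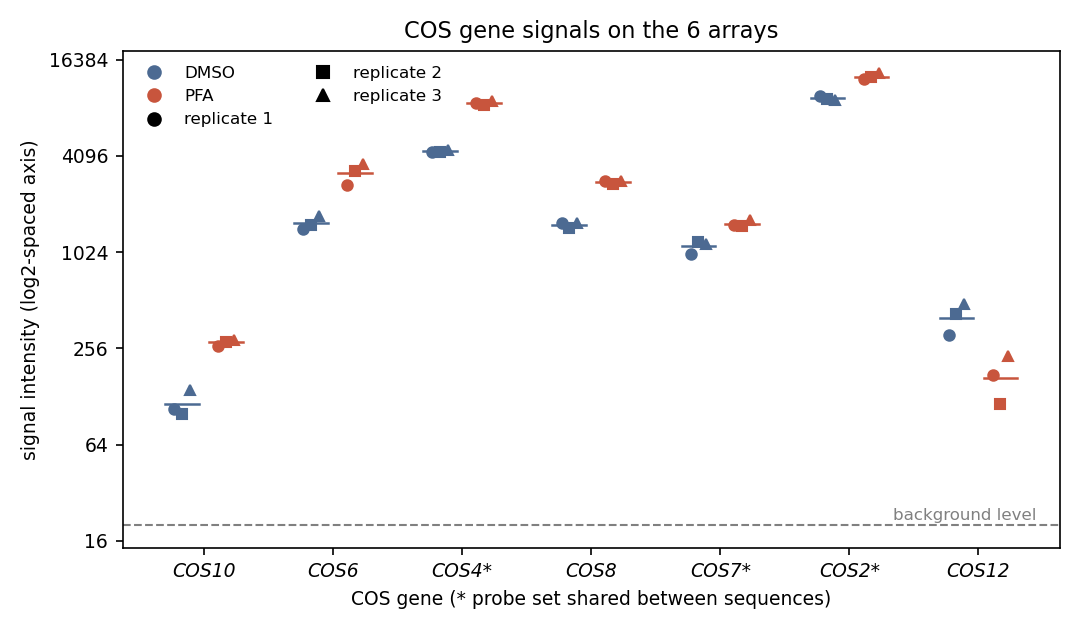
Signal intensity (vertical axis, log2-spaced) of the 7 measured COS genes on each array, with 3 DMSO and 3 PFA points a gene, a symbol for each replicate number and a line at the geometric mean. PFA points lie above all DMSO points in 6 genes and below them in COS12, and all points lie above the background level of 20.01 (dashed). Heights are not comparable between genes, because each gene has its own probes.

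Members with a probe set not marked as shared come first, since their values are the least open to mixing with other copies. COS10 (YNR075W) had signals of 107, 99.1 and 141 on the DMSO arrays and 266, 280 and 291 on the PFA arrays. Its lowest PFA value was 1.88 times its highest DMSO value. The means were 116 ± 22.5 and 279 ± 12.3 (SD, n = 3), a rise of 2.44-fold (95% interval 1.94 to 3.06), and 3.58% of the genes tested had a larger rise. COS10 was also the dimmest member against background, with its lowest value 4.95 times the background level.

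COS6 (YGR295C) had signals of 1432, 1509 and 1736 in DMSO and 2696, 3304 and 3658 in PFA. Both groups were spread more widely than for most members, and DMSO replicate 3 and PFA replicate 3 were the highest of their groups. The geometric means differed 2.06-fold (95% interval 1.74 to 2.43), and 5.43% of genes had a larger rise. COS8 (YHL048W) had signals of 1567, 1442 and 1549 in DMSO and 2874, 2721 and 2851 in PFA. Its replicates lay close together in each group, with coefficients of variation of 4.45% and 2.92%. The rise was 1.85-fold (95% interval 1.66 to 2.07), exceeded by 7.21% of genes.

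COS12 (YGL263W) was the member with the opposite direction. Its signals were 310, 419 and 483 in DMSO and 174, 114 and 230 in PFA. The groups stayed apart, with the lowest DMSO value 1.34 times the highest PFA value, although the replicates of each group differed widely. The coefficients of variation were 21.7% in DMSO and 33.6% in PFA, the latter the highest of any member and group. The means were 404 ± 87.5 and 173 ± 58.1 (SD, n = 3), a 2.39-fold difference (95% interval 1.70 to 3.36), and 1.96% of genes had a larger fall. Without single arrays the log2 change of COS12 ran from -1.49 to -0.99.

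The remaining 3 members were read on probe sets whose identifiers mark them as shared between sequences, so each value can mix COS copies and the copy is uncertain. The annotation gives only a single gene name for each of them. COS4 (YFL062W) had signals of 4334, 4323 and 4482 in DMSO and 8809, 8593 and 9023 in PFA. Every PFA array was above every DMSO array by a wide margin, the lowest PFA value being 1.92 times the highest DMSO value. The rise was 2.01-fold (95% interval 1.85 to 2.19), and 5.81% of genes had a larger rise.

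COS2 (YBR302C) had signals of 9793, 9304 and 9180 in DMSO and 12414, 12716 and 13479 in PFA. Its rise was 1.37-fold (95% interval 1.26 to 1.48). COS7 (YDL248W) had signals of 1004, 1194 and 1155 in DMSO and 1509, 1485 and 1620 in PFA, a rise of 1.38-fold (95% interval 1.21 to 1.57). These were the smallest changes of the measured members, and 18.7% and 18.1% of genes, respectively, had a larger rise. Of the 4 members without a shared probe set, 3 were higher and 1 was lower in PFA.

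**Figure D2:**
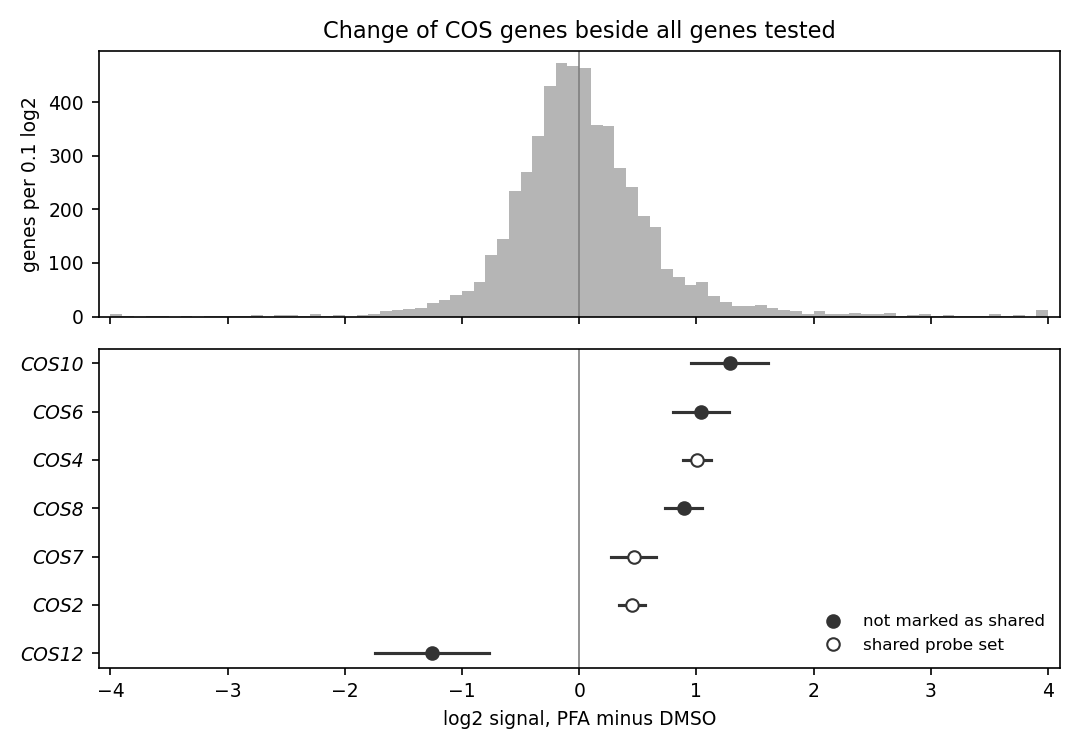
Top, the number of genes per 0.1 log2 of change among the 5356 genes tested, with the 15 genes beyond 4 in either direction drawn in the end bins. Bottom, the log2 difference of PFA minus DMSO for each measured COS gene with its 95% interval (limma), open circles marking shared probe sets. The 6 members that were higher lie between 0.45 and 1.29 and COS12 lies at -1.26.

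PFA replicate 3 held the highest PFA value in 6 of the 7 members, COS8 being the exception. DMSO replicate 3 held the highest DMSO value in 4 of 7. The share of all genes highest on these arrays was not counted, so nothing particular to the family is read from this. Coefficients of variation over the members and groups ran from 2.03% for COS4 in DMSO to 33.6%. The family gene COS9 (YKL219W), which was not among the 10 chosen, had signals of 649, 635 and 730 in DMSO and 997, 1004 and 1036 in PFA on a probe set not marked as shared. Its PFA values lay above all DMSO values, and the rise was 1.51-fold (95% interval 1.33 to 1.71).

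COS9 was also the gene whose log2 signals followed those of COS10, the member with the largest change as deposited, most closely (Pearson r = 0.999 over the 6 arrays). Next came CDC7, which encodes a kinase needed to start DNA replication (r = 0.998, 1.48-fold higher), and ATG40, which encodes a receptor for autophagy of the endoplasmic reticulum (r = 0.998, 2.13-fold higher). The 6 arrays share the 2 treatments, and 583 genes correlated with COS10 above 0.95. The choice of COS10 rests on a narrow lead over COS12 (log2 changes of 1.29 and -1.26): COS12 changed more after median centring (-1.32 against 1.22) and after quantile normalization (-1.35 against 1.17).

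Few relatives of COS could be measured. Of the 10 DUP240 genes, 5 had a probe set, and of these 2 rose and 2 fell, while MST27 missed the threshold, with a median log2 change of 0.27. Among all genes 30.3% rose and 31.8% fell, and 5 genes are too few to set against these shares. UIP3, which encodes a partner of the SUMO protease Ulp1, had DMSO and PFA mean signals of 2355 and 5009, a rise of 2.13-fold (limma adjusted p = 4.81e-08). PRM8, named for its induction by mating pheromone, rose 2.08-fold (limma adjusted p = 8.47e-07). PRM9, a relative of PRM8, fell 4.97-fold, from 571 to 115 (limma adjusted p = 2.07e-08). MST28, which like MST27 encodes a protein that binds vesicle coats, was 1.30-fold lower on a shared probe set.

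The endosomal machinery that receives ubiquitinated cargo was changed in a share of genes near that of all genes. Of 20 genes for the ESCRT complexes and their partners in multivesicular body sorting, 9 rose and 4 fell, while 7 missed the threshold (median log2 change 0.05). That is 65% called, against 62% of all genes, with 45% higher against 30.3% and 20% lower against 31.8%. VPS27 and HSE1, which form the complex that first binds ubiquitinated cargo, rose 1.72-fold and 1.78-fold. VPS36, the ubiquitin-binding subunit of ESCRT-II, rose 3.22-fold, from 1141 to 3670, and VPS60 rose 1.84-fold. The 4 that fell were VPS4, the ATPase that takes ESCRT apart (log2 change -0.35), its cofactor VTA1 (-0.65), the ESCRT-I gene SRN2 (-0.56) and the ESCRT-III gene VPS24 (-0.23). The call of VPS24 was lost without the variance trend and on leaving out any array but PFA replicate 2. DOA4, which recovers ubiquitin from cargo, rose, with a log2 change of 0.54.

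The genes that mark membrane proteins with ubiquitin were called in a share near that of all genes, more often as higher than as lower. Of 19 genes for Rsp5, other ligase components, adaptors and polyubiquitin, 11 rose, 1 fell, BUL2, and 7 missed the threshold (median log2 change 0.36). That is 63.2% called, against 62% of all genes, with 57.9% higher against 30.3% and 5.26% lower against 31.8%. The list was chosen with earlier results of these data known. The call of BUL2 (log2 change -0.22) was lost with a replicate block and on leaving out any 1 of the 6 arrays. RSP5 itself, the main ligase, had a log2 change of 0.11 ± 0.08 (SE, limma adjusted p = 0.208). The arrestin-like adaptor genes CSR2, ROG3 and ROD1 rose 9.08-fold, 4.44-fold and 1.88-fold, CSR2 from a mean signal of 286 to 2596 (limma adjusted p = 4.02e-11). UBI4, the stress-induced polyubiquitin gene, rose 3.18-fold, from 2690 to 8531.

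Of 23 genes for Sir proteins, related deacetylases, other silencing factors and synthesis of NAD, which Sir2 consumes, 8 rose and 5 fell, while 10 missed the threshold (median log2 change 0.05). The share called was 56.5%, against 62% of all genes, with 34.8% higher against 30.3% and 21.7% lower against 31.8%. SIR2 fell, from signals of 878 ± 23.1 to 620 ± 27.2 (SD, n = 3), a log2 change of -0.50 (limma adjusted p = 0.000135). SIR4 rose, with a log2 change of 0.34, while SIR3 and HST1 had log2 changes of -0.02 and -0.13 (limma adjusted p = 0.891 and 0.187). HST2, a deacetylase gene related to SIR2, rose 2.22-fold. In NAD synthesis BNA2, the first step from tryptophan, rose 2.70-fold and NPT1, the nicotinate salvage enzyme gene, 1.97-fold, while BNA4, of the same pathway as BNA2, fell 1.88-fold. The others that fell were HST3, a deacetylase gene (log2 change -0.71), TNA1, the nicotinic acid permease gene (-0.58), and DOT1, which encodes a histone methyltransferase (-0.35), whose call was lost without PFA replicate 1 (limma adjusted p = 0.0547).

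**Figure D3:**
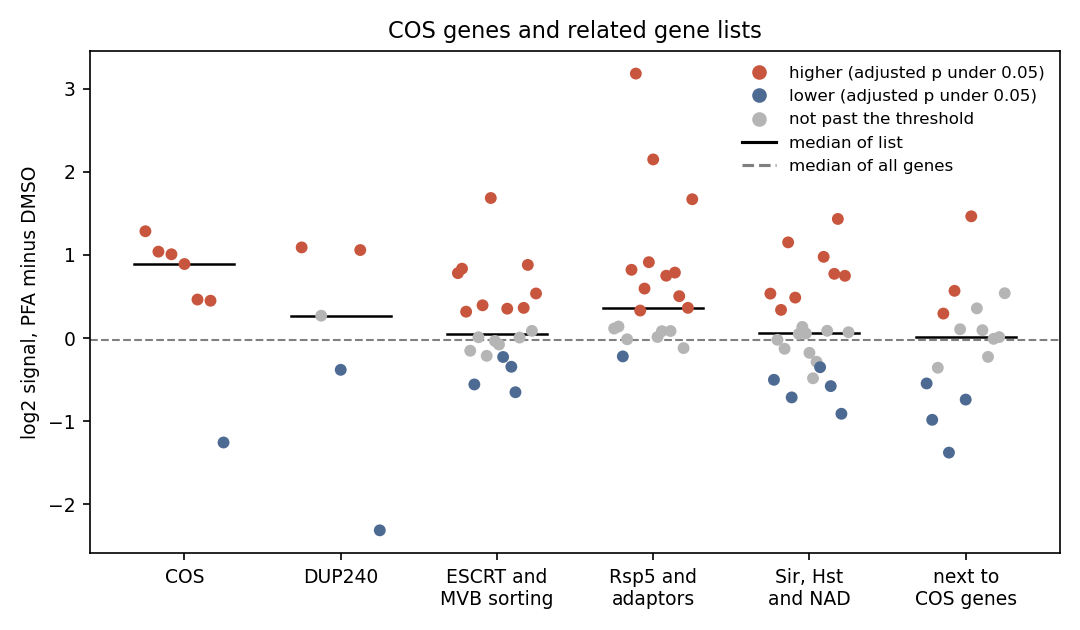
Log2 difference of PFA minus DMSO (vertical axis) for the tested genes of the COS family, 4 related lists and the genes next to COS genes, with 1 point a gene, colours for the limma call, a solid line at each median and a dashed line at the median of all genes. List medians run from 0.01 beside COS genes to 0.89 in the COS family, and each list holds members that were lower.

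The 10 chosen genes occupy 10 ends of 8 chromosomes. In the order of protein-coding genes in the RefSeq annotation, COS2, COS5, COS7 and COS12 are the outermost gene of their arm and COS4, the farthest from its end, is the sixth. Of the outermost members measured, COS2 and COS7 were higher, on shared probe sets whose copy is uncertain, and COS12 was lower. Among members on probe sets not marked as shared, COS12 at place 1 was lower. COS6 at place 2 and COS8 and COS10 at place 4 were higher. Whether place from the end goes with direction was not tested. COS12 and COS6 lie at opposite ends of chromosome VII and had log2 changes of -1.26 and 1.04.

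Genes beside COS genes were measured in 15 of 29 cases, taking the nearest 2 on each side. Of the 15, 3 rose and 4 fell, while 8 missed the threshold, with a median log2 change of 0.01. This was 20% higher and 26.7% lower, against 30.3% and 31.8% of all genes. Next to COS8, which was 1.85-fold higher, the siderophore transporter gene ARN2 fell 1.98-fold, from signals of 3133, 3534 and 3465 to 1652, 1648 and 1820 (limma adjusted p = 4.00e-07). Next to COS10, AIF1, which encodes a mitochondrial cell death effector, fell 1.46-fold (limma adjusted p = 0.000228). ARN2 and AIF1 ran opposite to the COS gene beside them. On the telomere side, YHL048C-A beside COS8 and YNR075C-A beside COS10 had log2 changes of -0.01 and 0.54 and missed the threshold. The DMSO signals of YNR075C-A, 46.9, 18.8 and 25.8, were close to the background level.

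Beside COS7, which was 1.38-fold higher, the next genes inward, MPH2, a maltose-type sugar transporter gene, and SOR2, a sorbitol dehydrogenase gene, rose 1.48-fold and 2.76-fold. Beside COS2 and COS4, the maltase gene MAL32 fell 2.60-fold and SNO3, of a vitamin B6 gene family, fell 1.67-fold. These 4 were read on shared probe sets, so the copy is uncertain. The call of MPH2 was lost after quantile normalization (limma adjusted p = 0.0534), without PFA replicate 2 (0.0600), over the mean of its probe sets (0.183) and on its probe set not marked as shared (0.712). Near COS3, ERO1, which encodes the oxidase of protein folding in the endoplasmic reticulum, rose 1.23-fold. YGL262W, beside COS12, had a log2 change of -0.23 (limma adjusted p = 0.625) with PFA replicate 1 close to the background level.

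**Figure D4:**
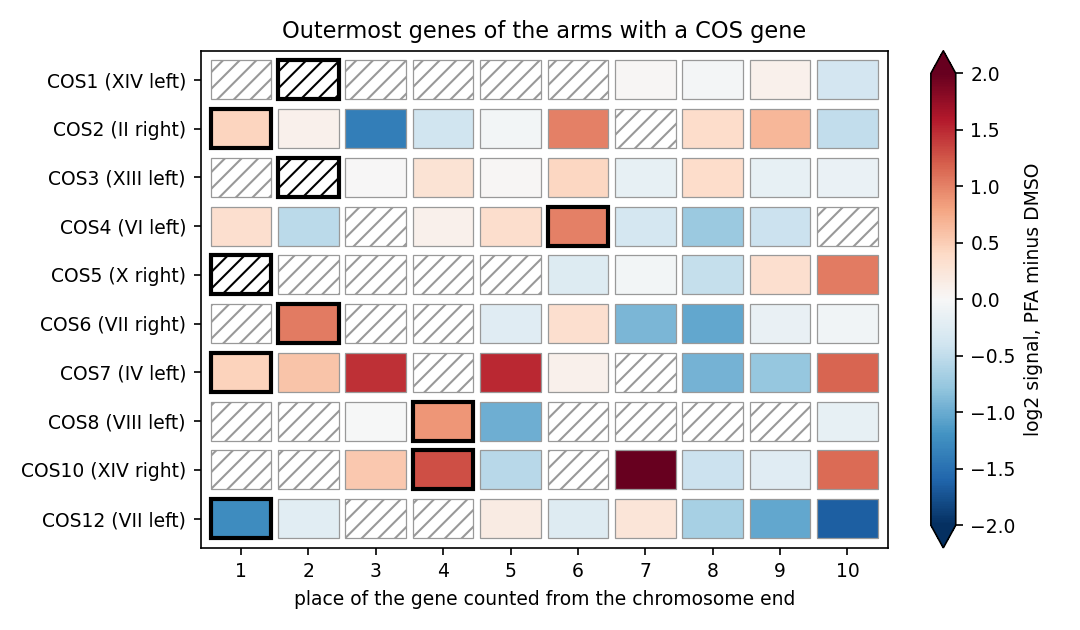
The 10 outermost protein-coding genes (horizontal axis, place counted from the chromosome end) on each arm that holds a chosen COS gene (rows), coloured by the log2 difference of PFA minus DMSO, with colours ending at 2 in either direction. Thick frames mark the COS genes and hatching marks genes not tested. Measured COS genes are red in 6 rows and blue for COS12, beside neighbours of either colour.

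Genes near all chromosome ends were counted for comparison. Among 310 genes within the outermost 10 of an arm, with the 10 chosen COS genes left out and COS9 counted in, 218 were tested, of which 71 (32.6%) rose and 57 (26.1%) fell, against 30.3% and 31.8% of all genes. COS9 was 1 of the 71. On arms with a chosen COS gene 15 of 61 rose and 16 fell, and on the other arms 56 of 157 rose and 41 fell. In places 1 and 2 from the end 9 of 23 rose and 4 fell. In places 3 to 5 20 of 64 rose and 11 fell, and in places 6 to 10 42 of 131 rose and 42 fell. The median log2 changes were -0.0008, 0.06 and -0.09, respectively, and -0.02 over the 218. Shared probe sets made up 13 of the 23, 23 of the 64 and 11 of the 131, so place and sharing overlap. Whether direction goes with place was not tested. Of the 218, 47 were read on shared probe sets, 20 of them higher and 9 lower, and of the other 171, 51 were higher and 48 lower. The largest changes in this list were in PCK1, of gluconeogenesis, with a log2 change of 6.56, PUG1, a plasma membrane porphyrin transporter gene, at 2.69, DIA1 at 2.62 and YJL218W at -2.58.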

How the data were processed

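The deposited file holds linear signal intensities, 1 for each probe set and array, which the authors had scaled to a common trimmed mean (lowest and highest 2% left out), as the values show. The submitters' processing notes name GCOS 1.1. How probes were summarised and background removed is not given in the sources used here. Such scaling would hide a shift of all transcripts. Probe sets took gene names from the platform annotation, updated through the RefSeq table of R64. Of 10928, 5498 matched a single yeast gene, 1 several genes, 3470 were unnamed and 213 were controls. The other 1746 were annotated but matched no gene of that table, and were taken to be of another organism. No coordinates were used, only gene order.

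The background level was the 95th percentile, over these annotated probe sets that matched no yeast gene, of the mean log2 signal. The brightest probe set stood for a gene. Log2 signals were fitted without a pseudocount with limma 3.58.1 in R 4.3.3 (variance trend, no replicate block, Benjamini-Hochberg over 5356 genes, threshold 0.05). Folds compare geometric means, while means ± SD were taken on linear signals. The replicates are called biological in the titles, so p-values reflect the spread between these samples. The procedure was tested on simulated data with 200 changed genes. In the real data 3323 genes were called, so the simulation did not test calls at that share. Figures were drawn with matplotlib 3.10.9.

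Members and lists were chosen with earlier results of these data known. Named were all members, COS9, up to 4 called genes of largest change per list, called neighbours of COS genes and SIR2, SIR3, SIR4, HST1, RSP5, VPS27 and UBI4. BUL2, MST27, YGL262W, YHL048C-A, YNR075C-A, VPS4, VTA1, SRN2, VPS24, DOA4, HST3, TNA1 and DOT1 were named after their values were seen. Alternatives covered the filter (none or stricter), pseudocounts of 16 and 64, quantile normalization, median centring, no variance trend, a replicate block, leaving out each array, the mean of all probe sets and leaving out shared probe sets.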

Additional observations from a re-analysis of the deposited data

How the results depend on the processing

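Over 16 alternatives no measured COS gene changed direction, and the number past the threshold, a description here, was 7 of 7 in all but a pair of settings. Leaving out shared probe sets removed COS2, COS4 and COS7 and left 4 of 4, and requiring a signal above the median of yeast probe sets removed COS10 and COS12 and left 5 of 5. Centring arrays on the median moved the log2 change to 0.39 for COS2, 0.95 for COS4 and 0.83 for COS8, quantile normalization to 0.56 for COS2 and 1.05 for COS4, and a pseudocount of 64 to 0.94 for COS10, where the added constant shrinks changes of dim genes. COS10 had the largest change as deposited, but COS12 exceeded it after centring, after quantile normalization, with either pseudocount and without DMSO replicate 1, DMSO replicate 2 or PFA replicate 3, and at a pseudocount of 64 COS4 and COS6 did too. Over all genes the median log2 change was -0.02 as deposited, -0.05 after quantile normalization and -0.08 after centring. The stricter filter, which tests fewer genes, left 1893 genes called of 2724, with 2 in the DUP240 list, 5 in the Rsp5 list, 5 in the silencing and NAD list, 2 beside COS genes and 45 near chromosome ends. Beside COS genes 3 were called without shared probe sets. With a replicate block 3366 genes and 7 COS genes were called. Same-numbered arrays shared no consistent deviation (correlations of -0.05, -0.09 and 0.16 over 5356 genes), so the numbers were not taken as pairs. Leaving out single arrays gave 2963 to 3266 genes called and 7 COS genes each time.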

Other observations

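COS111 (YBR203W) carries a similar name but is not a member of the subtelomeric COS family: it is known for a role in resistance to the antifungal drug ciclopirox olamine. A search by name would take it in, and it was chosen after its values were seen. Its mean signal was 79.3 in DMSO and 326 in PFA, with a log2 change of 2.03 ± 0.15 (SE, limma adjusted p = 1.80e-07). Its groups did not overlap, as in 66.6% of all genes tested. The change was larger than that of any measured COS gene, which is given only as a description.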
